A study of Mus musculus with 15 samples.

Results

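Lin28a, Lin28b, Trim71, Hmga2, Igf2bp1, Igf2bp2 and Igf2bp3 are 7 genes of the mouse, of 14615 gene symbols with a summed expression value, that are active in the embryo. Apart from Igf2bp2, which is known to persist in many adult tissues, they are mostly switched off in the adult. The 7 were chosen by symbol, and the choice was made after Lin28a had been seen to start above whole embryos in the early lens and to end below them. The levels of Lin28a are therefore given as a description with no test. Tests are given for the other 6, whose own changes did not enter the rule, although they were put forward as companions of Lin28a. All 7 were found in the table and passed the filter on low values. The name oncofetal RNA-binding genes fits 6 of the 7, since Hmga2 encodes a protein that binds DNA.

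The data were RNA-seq profiles of wild-type, untreated C57BL/6NTac mouse embryos in 5 groups of 3 libraries, 15 in all. In 4 groups the lens had been dissected, and each library was a pool of 50 lenses at E10.5 (embryonic day), of 29 at E12.5, of 18 at E14.5 or of 17 at E16.5. The fifth group, labelled whole body, was made from entire embryos of E10.5 to E12.5, and the labels do not say how those days were combined in the 3 libraries. Tissue and age therefore cannot be told apart where any lens stage is set against whole body. The lenses of E14.5 and E16.5 were older than all of those embryos, and those of E10.5 and E12.5 may differ in age from some of them. Lens epithelium and lens fibres were not separated. Values are FPKM, fragments scaled to transcript length and to library size, which the authors deposited per assembled transcript and which were summed here per gene. FPKM is scaled by length, so levels of different genes can be set side by side.

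LIN28A and LIN28B are RNA-binding proteins that keep the let-7 microRNAs from maturing. They bind the let-7 precursor and, for LIN28A, bring in the uridyl transferases TUT4 and TUT7 (genes Zcchc11 and Zcchc6), after which the exonuclease DIS3L2 destroys the tailed precursor. Mature let-7 in turn represses the mRNAs of both Lin28 genes, of Trim71, of Hmga2 and of the Igf2bp genes, so the 2 sides hold each other down. TRIM71, known first as lin-41 in the worm Caenorhabditis elegans, is a ubiquitin ligase that also represses mRNAs. HMGA2 is a chromatin protein that bends DNA at AT-rich stretches. IGF2BP1, IGF2BP2 and IGF2BP3 bind mRNAs in the cytoplasm and affect their stability, transport and translation. In the lens, cells at the rear leave the cell cycle and elongate into fibres, while the front remains a dividing epithelium.

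The letters that let-7 reads are shown here because every member carries them. RefSeq (GRCm38.p6) gave 10 mature let-7 family sequences with the seed GAGGUAG, from 12 loci, and 1 more, let-7j, with the seed GAGGUAU. The seed, bases 2 to 8, is in capitals.
mmu-let-7a-5p: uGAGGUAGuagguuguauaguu
mmu-let-7c-5p: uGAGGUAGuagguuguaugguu
mmu-let-7g-5p: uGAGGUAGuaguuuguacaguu
mmu-let-7i-5p: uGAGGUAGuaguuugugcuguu
mmu-miR-98-5p: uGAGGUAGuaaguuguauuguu
mmu-let-7j: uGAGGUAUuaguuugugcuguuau

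The 3′ untranslated region (UTR) of each member's main transcript was searched on the transcript strand for CTACCTC, which pairs with the shared seed, and for CTACCTCA, the same letters followed by an A, which are a subset of the 7-base matches. Each 8-base match is printed with the 20 bases before it, as DNA letters of the transcript (GENCODE vM21, GRCm38, all on the minus strand of the genome), and the match is in capitals.
Lin28a site 1 (chr4:134005189-134005216): ggagtgcacagcctgttgaaCTACCTCA
Lin28a site 2 (chr4:134004551-134004578): gctttgagatcgccacaaacCTACCTCA
Lin28b site 1 (chr10:45381022-45381049): ccttcacccgggcgggaagtCTACCTCA
Trim71 site 1 (chr9:114512472-114512499): agtacaacattgcctaagtcCTACCTCA
Trim71 site 2 (chr9:114512376-114512403): tgtgaagtgataatttctatCTACCTCA
Trim71 site 3 (chr9:114509047-114509074): ttttgtttagtatggattttCTACCTCA
Trim71 site 4 (chr9:114509021-114509048): caattttggcaaaaagttgtCTACCTCA
Hmga2 site 1 (chr10:120364224-120364251): ggggcgccgacattcaatttCTACCTCA
Igf2bp1 site 1 (chr11:95961778-95961805): gcagtgctgtgcgaagtaaaCTACCTCA
Igf2bp1 site 2 (chr11:95959357-95959384): ggaaccagcagtgctattaaCTACCTCA
Igf2bp1 site 3 (chr11:95958763-95958790): tacgagtataaatggatgaaCTACCTCA
Igf2bp2 site 1 (chr16:22059473-22059500): gaaaaacacacaaataaaagCTACCTCA
Igf2bp3 site 1 (chr6:49086787-49086814): aaacgtgcatttttactcaaCTACCTCA

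Lin28b, Trim71, Hmga2 and Igf2bp1 each had 4 matches of 7 bases, Lin28a had 2, and Igf2bp2 and Igf2bp3 had 1 each. Of 12620 genes with an annotated 3′ UTR, 9.44% held the 7-base letters at least once, 3.38% held the 8-base letters, and 0.0792% held the 7-base letters 4 times or more. The members' UTRs are long, so each was also set against UTRs of 0.8 to 1.25 times its length. Among UTRs like that of Hmga2 (2977 bases), 16.9% held a 7-base match and 0.136% held at least 4. Among UTRs like those of Lin28b, Trim71 and Igf2bp1, the share with at least 4 was 0.491%, 0.825% and 0.59%. For the pair of matches in Lin28a it was 2.32%. For the single matches of Igf2bp2 and Igf2bp3 the share was 10.1% and 13.6%. These genes are known as let-7 targets, so the matches describe them and are not a result of the expression data. A match is a run of letters, not a measured binding site.

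Lin28a (ENSMUSG00000050966, chr4:134003330-134018841, minus strand, 4 exons) was the most abundant of the Lin28 pair at E10.5 and nearly gone at E16.5. Its levels in lens libraries 1, 2 and 3 were 125, 129.9 and 146 FPKM at E10.5. They were 16.1, 14.4 and 10.3 FPKM at E12.5, and 6.02, 4.12 and 6.45 FPKM at E14.5. At E16.5 they were 0.69, 1.13 and 0.84 FPKM. No lens stage overlapped another, and each stage lay below the one before it. Whole body held 46.8, 45.5 and 39.4 FPKM, between the E10.5 and E12.5 lens and overlapping neither. The mean at E10.5 was 3.04 times that of whole body, and the later means were 31% (E12.5), 12.6% (E14.5) and 2.02% (E16.5) of it. From E10.5 to E12.5 the mean fell 9.82-fold, from E12.5 to E14.5 it fell 2.46-fold, and from E14.5 to E16.5 it fell 6.24-fold, 150.5-fold in all. The ratios to E16.5 rest on a mean of 0.887 FPKM at unknown read depth, so their size is rough. In bulk RNA of a whole organ, fewer cells that express a gene and less RNA of it per cell cannot be told apart, and that holds for every gene here.

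**Figure D1:**
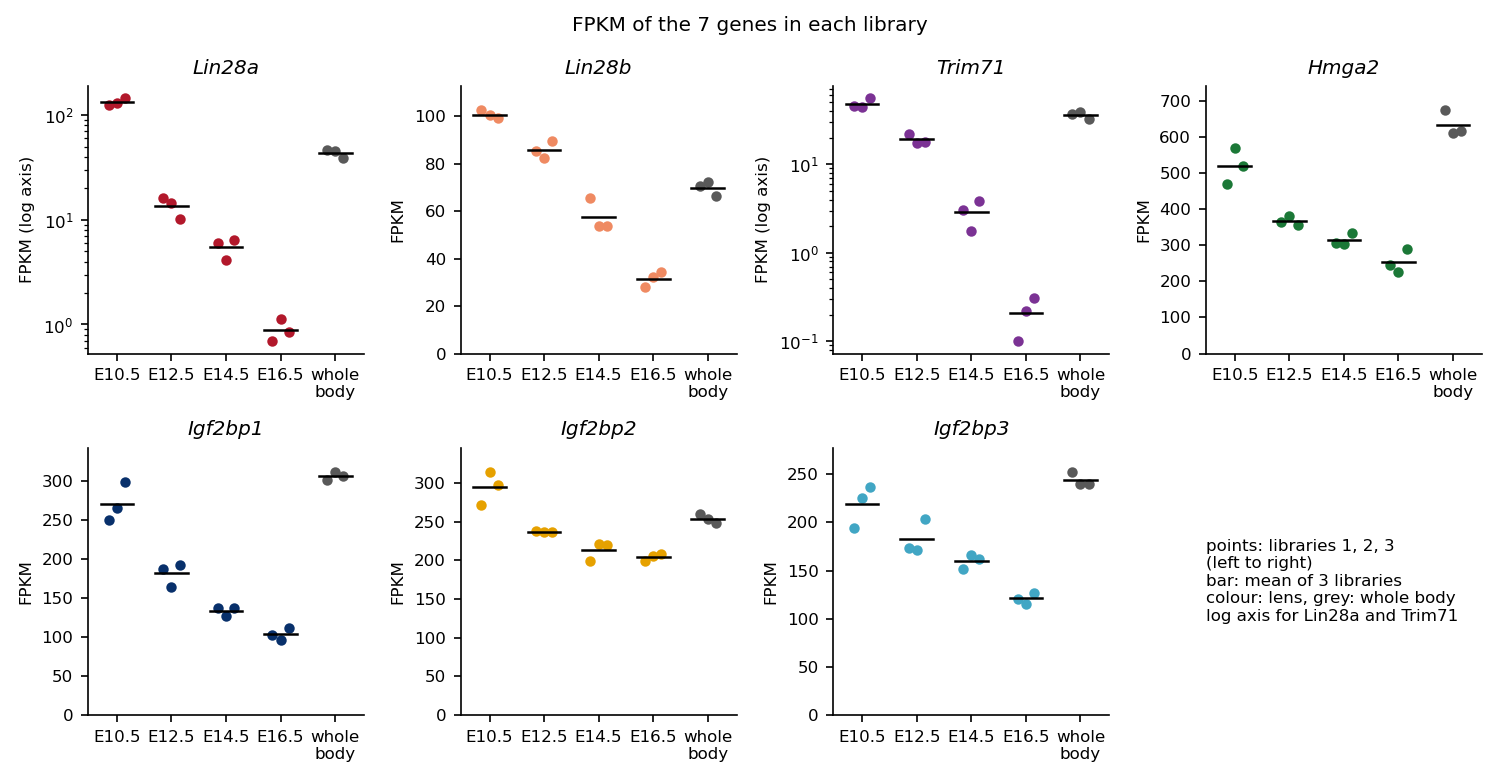
FPKM of each of the 7 genes in each library (points, libraries 1 to 3 from left to right, lens in colour and whole body in grey) with the mean of 3 libraries (bar), on a log axis for Lin28a and Trim71 and a linear axis from 0 for the others. Lin28a runs from 125 to 146 FPKM at E10.5 down to 0.69 to 1.13 FPKM at E16.5, while Igf2bp2 stays between 199 and 314 FPKM in every lens library.

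Lin28b (ENSMUSG00000063804, chr10:45376620-45486395, minus strand, 5 exons), the second Lin28 gene, fell later and less far. Its levels in libraries 1, 2 and 3 were 102, 100.4 and 99.2 FPKM at E10.5 and 85.3, 82.4 and 89.5 FPKM at E12.5. They were 65.6, 53.6 and 53.9 FPKM at E14.5 and 28.01, 32.4 and 34.3 FPKM at E16.5. Whole body held 70.6, 72.1 and 66.3 FPKM. Both early lens stages lay above every whole body library and both late stages lay below, with no overlap between any pair of groups. Against whole body Lin28b was higher at E10.5 (log2 fold change 0.53 ± 0.09 SE, adjusted p = 0.000104, limma) and at E12.5 (0.30 ± 0.09, adjusted p = 0.00637, limma). It was lower at E14.5 (-0.27 ± 0.09, adjusted p = 0.00876, limma; -0.71 with crystallins left out and -0.44 with quantile normalization) and at E16.5 (-1.12 ± 0.09, adjusted p = 1.06e-08, limma). All p-values here come from limma on log2(FPKM + 1) and are adjusted by Benjamini-Hochberg over all 14532 genes tested, with a call at 0.05.

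The E12.5 call of Lin28b against whole body was lost when crystallins were left out and library totals made equal (0.11, adjusted p = 0.293, limma), and the value was -0.0018 (adjusted p = 0.992, limma) when its reference transcript alone was used. That reference transcript made up 87.2% ± 2.0 (SD, n = 3) of Lin28b FPKM at E10.5 and 89.5% ± 0.6 in whole body, but 72.7% ± 3.4 at E12.5 and 71.5% ± 8.7 at E16.5. The rest lay in 4 assembled transcripts with a splice junction that the reference did not hold. From E10.5 to E16.5 Lin28b fell by 1.65 on the log2 scale (SE 0.09, adjusted p = 2.44e-10, limma), a 3.19-fold drop of the mean. The first step, from E10.5 to E12.5, was small (-0.23 ± 0.09, adjusted p = 0.0328, limma). That call did not hold without any 1 of the E10.5 libraries (adjusted p = 0.0787, 0.0662 and 0.0557 without replicate 1, 2 and 3, limma) or without E12.5 replicate 1 (0.0635) or 2 (0.1).

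The make-up of the Lin28 pair turned over. Lin28a supplied 56.9% ± 2.4 (SD, n = 3) of the FPKM of both genes at E10.5, 13.7% ± 3.0 at E12.5, 8.75% ± 1.80 in the E14.5 lens and 2.72% ± 0.56 by E16.5. In whole body it supplied 38.6% ± 1.3. The summed level of the pair went from 234 ± 9 FPKM at E10.5 to 32.5 ± 3.3 FPKM at E16.5, with 114 ± 7 FPKM in whole body. These shares rest in part on Lin28a and are a description with no test.

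Trim71 (ENSMUSG00000079259, chr9:114507133-114564369, minus strand, 4 exons) had the steepest fall of the 6 genes tested. Its levels in libraries 1, 2 and 3 were 45.2, 44.6 and 55.8 FPKM at E10.5 and 22.2, 17.4 and 18.0 FPKM at E12.5. They were 3.01, 1.76 and 3.83 FPKM at E14.5 and 0.10, 0.22 and 0.31 FPKM at E16.5. Whole body held 36.6, 39.2 and 32.2 FPKM, below every E10.5 library and above every other lens library. The mean at E16.5 was 0.433% of that at E10.5, a 231-fold drop. That ratio rests on an E16.5 mean of 0.21 FPKM, near 0 and at unknown read depth, so its size is rough. On the log2(FPKM + 1) scale, which understates the change of low values, the difference was -5.35 ± 0.18 (adjusted p = 3.46e-12, limma). Each step was called: -1.29 ± 0.18 to E12.5 (adjusted p = 3.6e-05), -2.42 ± 0.18 to E14.5 (adjusted p = 2.86e-07) and -1.64 ± 0.18 to E16.5 (adjusted p = 5.75e-05, limma).

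Against whole body Trim71 was 0.42 ± 0.18 at E10.5, which did not pass the threshold (adjusted p = 0.0683, limma), although it did without E14.5 replicate 2 (0.0242) or 3 (0.0424), which enter only the shared spread. Quantile normalization (0.48, adjusted p = 0.023) and the fit of the compared groups alone (0.42, adjusted p = 0.0145, limma) also called it higher. It was lower in the E12.5 lens (-0.88 ± 0.18, adjusted p = 0.000657), and by E14.5 the gap was -3.29 ± 0.18 (adjusted p = 4.14e-10, limma). The E16.5 value was -4.93 ± 0.18 (adjusted p = 4.18e-12, limma). The FPKM of Trim71 was spread over 3 assembled transcripts whose shares differed between replicates. The reference transcript held 45.4% ± 19.8 (SD, n = 3) of it at E10.5, 64.3% ± 51.4 at E12.5 and 90.5% ± 8.3 in whole body. With that transcript alone the E10.5 value against whole body turned to -0.63 (adjusted p = 0.462, limma), and the steps to E12.5 (-1.32, adjusted p = 0.114) and to E16.5 from E14.5 (-0.76, adjusted p = 0.58, limma) were no longer called. Only the sum over its transcripts is therefore used for Trim71.

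**Figure D2:**
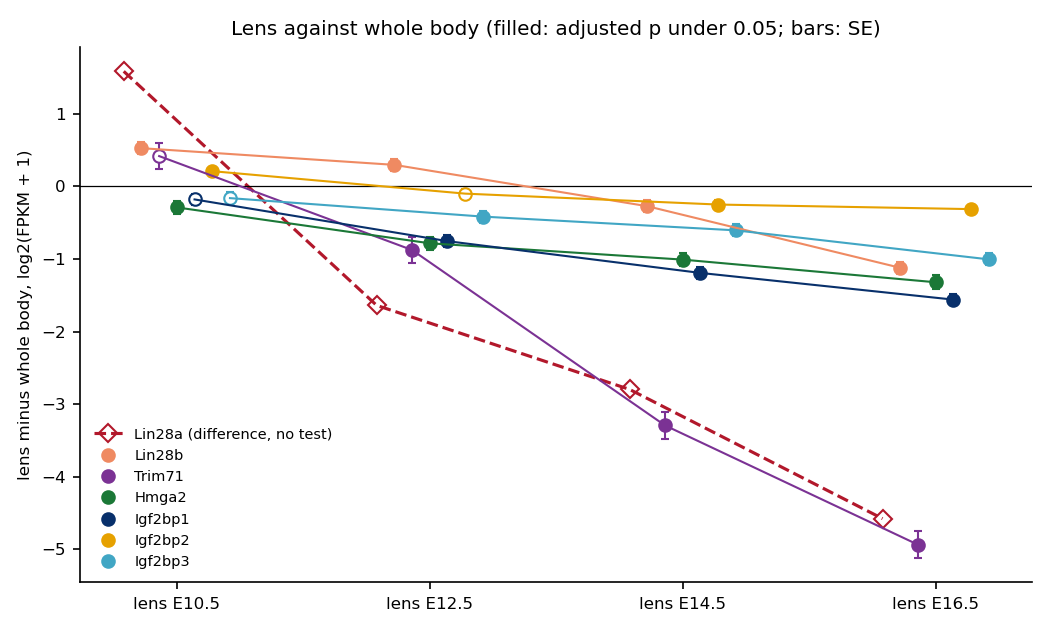
Lens minus whole body on the log2(FPKM + 1) scale at each lens stage, with SE bars for the 6 genes tested (filled points: adjusted p under 0.05) and open diamonds for Lin28a, which has no test. Lin28a and Trim71 end at differences of -4.58 and -4.93 at E16.5, and Igf2bp2 ends at -0.31.

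Hmga2 (ENSMUSG00000056758, chr10:120361275-120476469, minus strand, 5 exons), the chromatin protein, was the most abundant of the 7 in every group. Its levels in libraries 1, 2 and 3 were 471, 569 and 519.6 FPKM at E10.5, 365, 382 and 357 FPKM at E12.5, and 306, 305 and 334 FPKM at E14.5. At E16.5 they were 247, 226 and 291 FPKM, and whole body held 675, 611 and 617 FPKM. Whole body was above every lens library, and each lens stage was below the one before it with no overlap. Hmga2 was lower than whole body in the E10.5 lens (-0.29 ± 0.09, adjusted p = 0.0162), and the gap was wider in the E12.5 lens (-0.78 ± 0.09, adjusted p = 2.95e-06, limma). By E14.5 it was -1.01 ± 0.09 (adjusted p = 1.11e-07) and by E16.5 -1.32 ± 0.09 (adjusted p = 4.63e-09, limma). With quantile normalization the gaps were wider, at -0.76, -1.40, -1.91 and -2.28 in stage order. From E10.5 to E16.5 it fell by 1.03 (SE 0.09, adjusted p = 1.07e-07, limma), a 2.04-fold drop of the mean. The first step was called (-0.49 ± 0.09, adjusted p = 0.000417), the second was not (-0.22 ± 0.09, adjusted p = 0.0649), and the last lay at the threshold (-0.31 ± 0.09, adjusted p = 0.048, limma).

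That last step was not called without any 1 library of E14.5 (adjusted p from 0.0657 to 0.159, limma), or without E16.5 replicate 1 (0.142) or 2 (0.207). The same held without E10.5 replicate 3 (0.0615), E12.5 replicate 1 (0.0505) or 2 (0.0579), or any 1 whole body library (0.0572, 0.0651 and 0.0679), which enter only the shared spread. It was also lost with a pseudocount of 0.1 (0.05), the replicate number as a block (0.0625), no trend (0.0738) or the compared groups alone (0.16, limma). The second step was called without E10.5 replicate 1 (0.0495) or E16.5 replicate 3 (0.0388, limma). The E10.5 call against whole body was lost without E10.5 replicate 1 (-0.22, adjusted p = 0.0728) and without whole body replicate 1 (-0.24, adjusted p = 0.069, limma). With reference transcripts alone it was lost too (-0.29, adjusted p = 0.0686, limma).

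The transcripts of Hmga2 did not move together. The main reference transcript (3710 bases) went from 451 ± 51 FPKM (SD, n = 3) at E10.5 to 269 ± 17 at E12.5, 216 ± 27 in the E14.5 lens and 149 ± 27 by E16.5, with 559 ± 32 in whole body. Beside it the authors' assembly held 2 transcripts with a new splice junction, 4602 and 4385 bases long, which were summed here after their values were seen. Which of them held the FPKM differed between groups and among lens libraries. The 4602-base form was at 36.3 to 39.9 FPKM in the E10.5 lens and 0.00 to 1.03 FPKM in whole body, and the 4385-base form at 0.00 to 4.62 and 45.9 to 49.2 FPKM, so the sum sets different transcripts side by side there. From E12.5 on, lens libraries held 16.7 to 102 FPKM of the longer form and 0.06 to 64.5 FPKM of the shorter. Their sum was 37.2, 36.3 and 44.5 FPKM at E10.5, 76.9, 73.6 and 78.8 FPKM at E12.5, 85.2, 96.7 and 81.1 FPKM at E14.5, and 102, 88.9 and 95.6 FPKM at E16.5. Whole body held 47.8, 49.2 and 45.9 FPKM. Every lens library from E12.5 on was above every whole body library, and every E10.5 library was below. As a share of Hmga2 FPKM the sum was 7.62% ± 1.12 at E10.5, 20.8% ± 1.4 at E12.5, 27.97% ± 3.74 by E14.5 and 37.9% ± 4.5 by E16.5, against 7.52% ± 0.49 in whole body. Short reads assign FPKM among overlapping transcripts by estimate, so this is a description with no test.

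**Figure D3:**
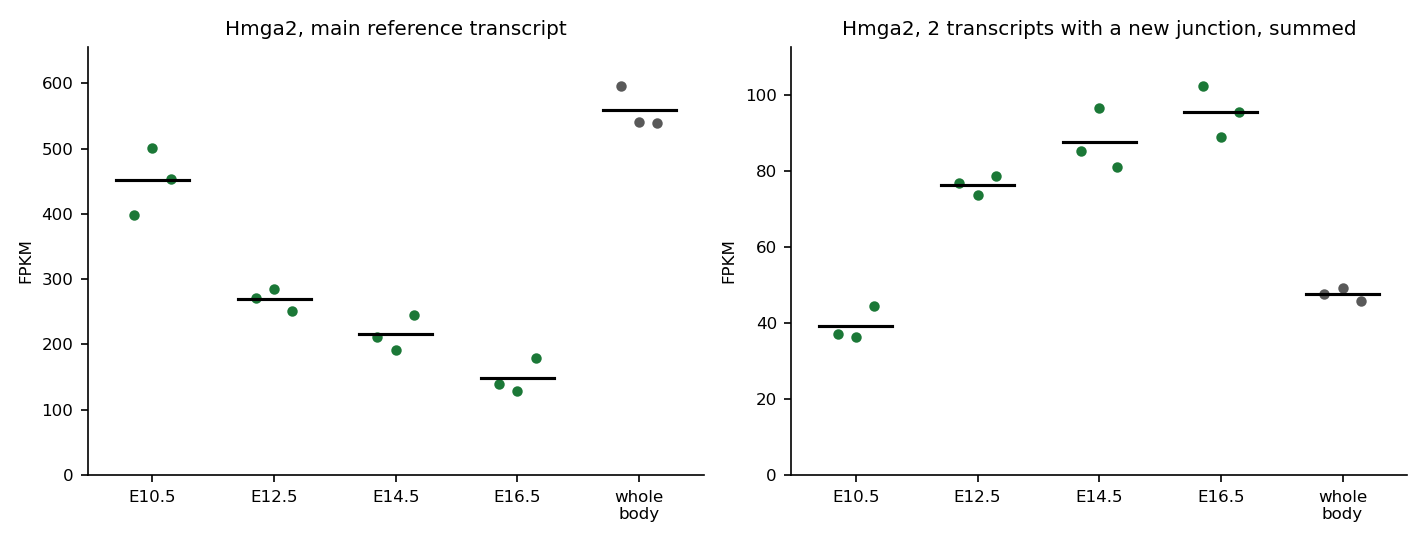
FPKM per library (points) and mean of 3 libraries (bar) of the main Hmga2 reference transcript (left) and of the sum of the 2 assembled Hmga2 transcripts with a new junction (right), on linear axes from 0, with lens stages in green and whole body in grey. The left panel falls from a mean of 451 to 149 FPKM over the lens stages, and the right panel goes from 39.3 to 95.7 FPKM.

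Igf2bp1 (ENSMUSG00000013415, chr11:95957163-96005940, minus strand, 15 exons) fell most of the 3 Igf2bp genes. Its levels in libraries 1, 2 and 3 were 249.8, 265 and 298 FPKM at E10.5, 188, 164 and 193 FPKM at E12.5, and 137, 126 and 138 FPKM at E14.5. At E16.5 they were 103, 96.3 and 111 FPKM, and whole body held 301, 312 and 306 FPKM, above every lens library. No 2 groups overlapped. The difference from whole body was not called at E10.5 (-0.18 ± 0.08, adjusted p = 0.0682, limma). It was called at E12.5 (-0.75 ± 0.08, adjusted p = 8.22e-07), E14.5 (-1.19 ± 0.08, adjusted p = 2.91e-09) and E16.5 (-1.56 ± 0.08, adjusted p = 1.25e-10, limma). From E10.5 to E16.5 it fell by 1.38 (SE 0.08, adjusted p = 7.81e-10), through steps of -0.57, -0.44 and -0.37 that were all called (adjusted p = 2.77e-05, 0.000487 and 0.00928, limma). The last of these was not called without E16.5 replicate 2 (-0.32, adjusted p = 0.0521, limma), and the E10.5 difference from whole body was called without E10.5 replicate 3 (-0.25, adjusted p = 0.019, limma). That difference was also called with crystallins left out (-0.23, adjusted p = 0.0255), quantile normalization (-0.26, adjusted p = 0.00942), reference transcripts alone (-0.25, adjusted p = 0.0414) or the replicate number as a block (-0.18, adjusted p = 0.0394, limma). The step to E14.5 was -0.69 with crystallins left out.

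Igf2bp3 (ENSMUSG00000029814, chr6:49085223-49214957, minus strand, 15 exons) followed at a smaller slope. Its levels in libraries 1, 2 and 3 were 194, 225 and 237 FPKM at E10.5, 174, 172 and 204 FPKM at E12.5, and 151, 167 and 162 FPKM at E14.5. At E16.5 they were 121, 115 and 127 FPKM, and whole body held 252, 239.8 and 239.5 FPKM. The E10.5 and E12.5 libraries overlapped, and the other neighbours did not. It was not called against whole body at E10.5 (-0.16 ± 0.08, adjusted p = 0.109) and was lower at E12.5 (-0.42 ± 0.08, adjusted p = 0.000379), E14.5 (-0.61 ± 0.08, adjusted p = 7.2e-06) and E16.5 (-1.01 ± 0.08, adjusted p = 2.39e-08, limma). The E10.5 difference was called lower with crystallins left out (-0.21, adjusted p = 0.0178), with quantile normalization (-0.21, adjusted p = 0.00468) and without E10.5 replicate 3 (-0.22, adjusted p = 0.05, limma). Quantile normalization gave gaps of -0.65 at E12.5 and -1.06 at E14.5, and leaving out crystallins -1.05 at E14.5 and -1.53 at E16.5. From E10.5 to E16.5 it fell by 0.84 (SE 0.08, adjusted p = 2.4e-07, limma), with values of -1.32 when crystallins were left out and -1.27 under quantile normalization. The step to E12.5 (-0.25, adjusted p = 0.0165) was lost without E10.5 replicate 2 or 3 (adjusted p = 0.0562 and 0.0791) or E12.5 replicate 1 or 2 (0.0572 and 0.0693, limma).

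Igf2bp2 (ENSMUSG00000033581, chr16:22059009-22163299, minus strand, 15 exons), the family member known to persist in many adult tissues, changed least. Its levels in libraries 1, 2 and 3 were 272, 314 and 297 FPKM at E10.5 and 237, 237 and 236 FPKM at E12.5. They were 199, 222 and 220.3 FPKM at E14.5 and 199, 206 and 208 FPKM at E16.5, and these late stages overlapped. Whole body held 259.9, 254 and 248 FPKM, below E10.5 and above E12.5. Igf2bp2 was higher than whole body at E10.5 (0.21 ± 0.06, adjusted p = 0.0112, limma), a call lost without E10.5 replicate 2 (0.16, adjusted p = 0.0595, limma). It was not called at E12.5 (-0.10 ± 0.06, adjusted p = 0.171) and was lower in the E14.5 lens (-0.25 ± 0.06, adjusted p = 0.00208) and the E16.5 lens (-0.31 ± 0.06, adjusted p = 0.000324, limma). These late gaps were -0.69 and -0.84 with crystallins left out, -0.74 and -0.88 with quantile normalization and -0.38 and -0.48 with equal upper quartiles. At E12.5 the same 3 scalings called it lower than whole body (-0.29, -0.33 and -0.13, adjusted p = 0.000243, 6.01e-05 and 0.0433, limma). It fell by 0.52 from E10.5 to E16.5 (SE 0.06, adjusted p = 2.49e-06), with values of -0.9988 when crystallins were left out and -1.04 under quantile normalization, and had its called step at E12.5 (-0.31, adjusted p = 0.00078, limma). The steps to E14.5 (-0.15, adjusted p = 0.0677) and E16.5 (-0.06, adjusted p = 0.612, limma) did not pass.

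The transcripts of Igf2bp2 differed between lens and whole body. A transcript annotated as retaining an intron (3267 bases) made up 47.2% ± 0.6 (SD, n = 3) of Igf2bp2 FPKM in whole body, 24.0% ± 5.9 in the lens at E10.5 and 13.7% ± 4.4 at E16.5. The main protein-coding transcript (3078 bases) made up 28.02% ± 2.72 in whole body, 44.9% ± 3.6 at E10.5 and 52.6% ± 0.7 at E16.5. In FPKM that coding transcript was 132 at E10.5 and 107 at E16.5, above the 71.2 of whole body at both ages, although the summed gene was below whole body at E16.5.

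Within the Igf2bp family the share of Igf2bp2 went from 37.6% ± 1.7 (SD, n = 3) of the summed FPKM at E10.5 to 39.4% ± 2.0, 42.1% ± 1.2 and 47.7% ± 1.4 at the later stages. Igf2bp1 went from 34.6% ± 1.5 to 30.2% ± 1.4, 26.4% ± 1.8 and 24.1% ± 1.0. Igf2bp3 had 27.9% ± 0.7 at E10.5 and 28.2% ± 0.5 at E16.5. In whole body Igf2bp1 led with 38.1% ± 0.9, and Igf2bp2 had 31.6% ± 0.3. The family sum was 784 ± 61 FPKM at E10.5, 429 ± 15 FPKM at E16.5 and 804 ± 10 FPKM in whole body.

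**Figure D4:**
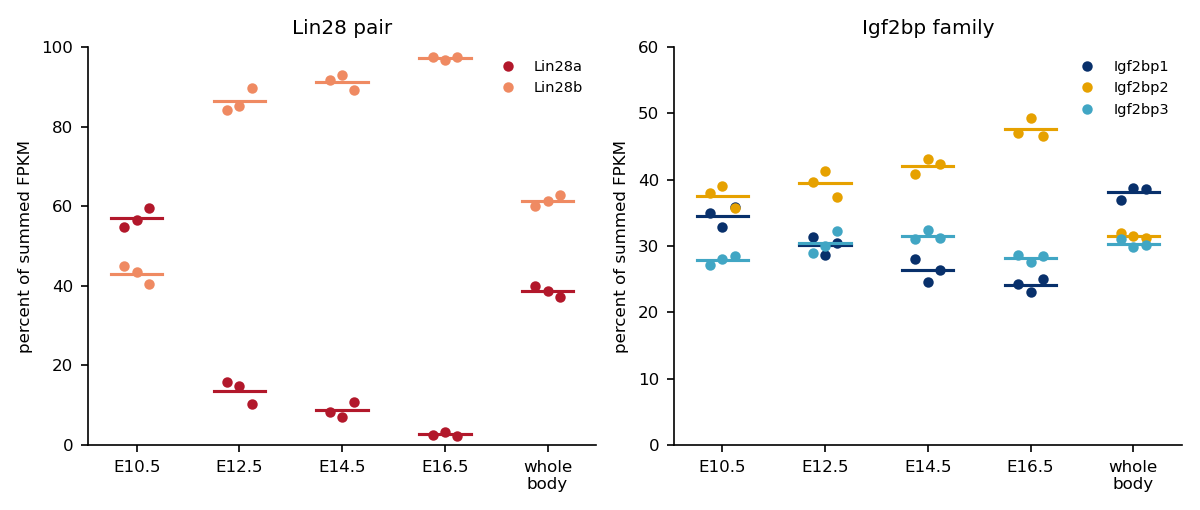
Share of each paralog in the summed FPKM of the Lin28 pair (left) and of the 3 Igf2bp genes (right), per library (points) with the mean of 3 libraries (bar). Lin28a goes from 56.9% at E10.5 to 2.72% at E16.5, and Igf2bp2 goes from 37.6% to 47.7% while Igf2bp1 goes from 34.6% to 24.1%.

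Counts over the 6 genes tested were read against all 14532 genes. Against whole body at E10.5, 2 of the 6 were higher, where 24.6% of all genes were, and 1 was lower, where 31.2% were. At E12.5, 1 was higher (32.3% of all genes) and 4 were lower (37.1%). All 6 were lower in both late stages, where at E14.5 and E16.5 42.6% and 43.4% of all genes were lower and 35.7% and 36.8% were higher. For Igf2bp2 this was the sum over its transcripts, while its main protein-coding transcript was above whole body at both stages. The 4 stages share the same 3 whole body libraries. Over the lens stages, all 6 were lower at E12.5 than at E10.5 (26.0% of all genes, with 29.5% higher), and 3 were lower at E14.5 than at E12.5 (22.4%, with 21.2% higher). The first of these counts was 4 to 6 without 1 library, and the genes lost were Lin28b and Igf2bp3. From E14.5 to E16.5, 5 were lower, where 4.03% of all genes were and 5.97% were higher. From E10.5 to E16.5 all 6 were lower, where 36.7% of all genes were and 37.2% were higher. The F test over the 4 lens stages called all 6, as it did 77.3% of all genes. No member was called higher over any step. Leaving out E10.5 replicate 3 raised the count against whole body at E10.5 from 3 to 5, with Igf2bp1 and Igf2bp3 added. Leaving out E10.5 replicate 1 raised the count from E12.5 to E14.5 from 3 to 6, and leaving out E16.5 replicate 2 lowered that from E14.5 to E16.5 from 5 to 3. The number of all genes called in the last step, 1454, was 871 without E14.5 replicate 3, 822 without E16.5 replicate 1 and 811 without E16.5 replicate 2.

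How the libraries are scaled matters for the small changes, since crystallins take a growing part of the lens RNA. Leaving out 17 crystallin genes and making totals equal moved the median log2 fold change of all genes from E10.5 to E16.5 from -0.01 to -0.39. Relative to that median, Igf2bp2 was at -0.60, Igf2bp3 at -0.92 and Hmga2 at -1.11, and all 6 were called lower, as they also were with quantile normalization and with equal upper quartiles. Between E12.5 and E14.5 each of these 3 scalings called all 6 lower in place of 3. Against whole body at E10.5, leaving out crystallins gave 2 higher and 3 lower, and quantile normalization 3 and 3. At E12.5 leaving out crystallins gave 0 higher and 5 lower, and both other scalings 1 and 5. Over all genes, the share of calls that were higher from E10.5 to E16.5 went from 50.3% to 30.6% with crystallins left out. In the single steps it went from 53.1% to 40.5%, from 48.7% to 21.5% (36.3% with equal upper quartiles) and from 59.7% to 35.1% (46.5% with quantile normalization and 47.6% with equal upper quartiles). Against whole body it went from 44.1% at E10.5 to 54.1% with quantile normalization. With crystallins left out it went from 46.5% to 35.1% at E12.5 and from 45.6% to 28.8% for the E14.5 lens, and by E16.5 the calls were 3398 higher and 8731 lower in place of 5348 and 6300.

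The genes that act on let-7 itself did not move as one. Of 14 genes for let-7 processing and decay, 3 rose and 9 fell from E10.5 to E16.5, where 37.2% of all genes rose and 36.7% fell, with a median log2 fold change of -0.49 beside -0.01 for all genes. Dis3l2, the nuclease that degrades tailed let-7 precursors, went up from 34.8 ± 3.4 FPKM (SD, n = 3) at E10.5 to 93.6 ± 5.2 FPKM at E16.5 (1.41 ± 0.10, adjusted p = 5.95e-09, limma), with 31.8 ± 1.3 FPKM in whole body. Ago1, an Argonaute that carries mature microRNAs, rose by 0.40 (SE 0.08, adjusted p = 0.000183, limma), but was at -0.07 (adjusted p = 0.237, limma) with crystallins left out. Hnrnpa1, an RNA-binding protein known to hinder let-7a processing in human cells, fell by 1.43 (SE 0.10, adjusted p = 8.98e-09, limma). Prkra, a partner of Dicer, fell by 1.004 (SE 0.099, adjusted p = 2.84e-07, limma). With crystallins left out 1 of the 14 rose and 12 fell, and with quantile normalization 1 and 11.

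On FPKM as deposited, other known let-7 targets split much as all genes did. Of 24 such genes, 10 rose and 11 fell from E10.5 to E16.5, beside 37.2% and 36.7% of all genes, and their median was -0.05. A 7-base match was present in 14 of the 23 with an annotated 3′ UTR. With crystallins left out 7 rose and 15 fell (median -0.53, and -0.39 for all genes, of whose calls 30.6% were higher). With quantile normalization 8 rose and 14 fell (median -0.57, and -0.045 for all genes, of whose calls 47.2% were higher). Mycn, a growth-promoting transcription factor, rose from 45.7 ± 3.3 FPKM (SD, n = 3) to 171 ± 9 FPKM (1.88 ± 0.13, adjusted p = 5.02e-09, limma), most of it by E12.5 (1.73 ± 0.13, adjusted p = 5.54e-08, limma). Igdcc3, a membrane protein of the immunoglobulin superfamily, fell from 305 ± 23 to 13.3 ± 3.0 FPKM (-4.44 ± 0.12, adjusted p = 1.86e-13, limma). Nr6a1, an orphan nuclear receptor of early embryos, was at 11.2 to 14.4 FPKM at E10.5, and at E16.5 it was listed at 0 in all libraries but 1, which held 2.00 FPKM (-3.27 ± 0.32, adjusted p = 2.84e-07, limma). Myc, named here after its values were seen, fell by 2.21 (SE 0.16, adjusted p = 1.22e-08, limma) while its relative Mycn rose.

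**Figure D5:**
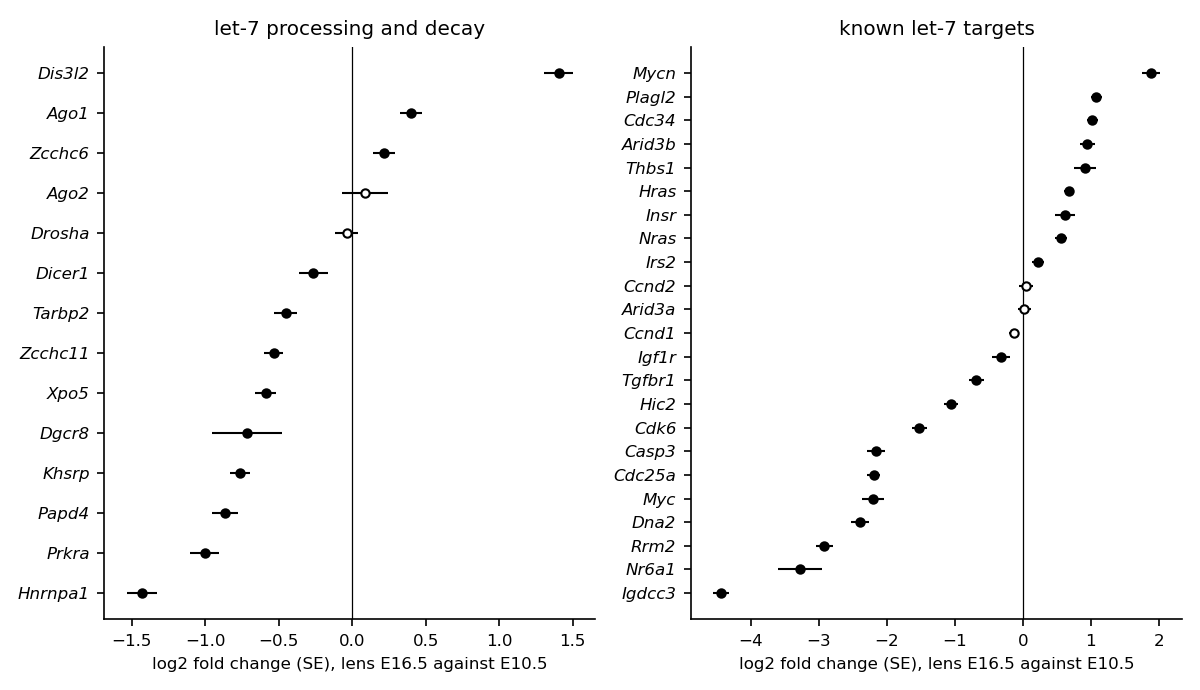
Log2 fold change with SE from lens E10.5 to E16.5 for 14 genes of let-7 processing and decay (left) and 23 of the 24 known let-7 targets (right), filled where the adjusted p was under 0.05. Dis3l2 stands at 1.41 and Hnrnpa1 at -1.43 on the left, and Mycn at 1.88 and Igdcc3 at -4.44 on the right.

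Mature microRNAs are not among the deposited values. An assembled transcript of 1634 bases that overlaps the let-7i hairpin, looked up after the table had been seen, was at 0.34 to 1.05 FPKM in lens libraries and 1.85 to 2.20 FPKM in whole body. Mir99ahg, the long RNA known to host a let-7c hairpin, was at 0.00 to 0.38 FPKM in lens libraries and 1.18 to 1.85 FPKM in whole body. Both were low everywhere and lower in the lens, and neither measures mature let-7.

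Of 8 genes for partners and bound mRNAs of IGF2BP1, 2 rose and 2 fell from E10.5 to E16.5, with a median of -0.04. Over all genes 37.2% rose and 36.7% fell, with a median of -0.01. Cd44, a bound mRNA for an adhesion receptor, rose from 2.41 ± 0.88 FPKM (SD, n = 3) to 6.61 ± 2.07 FPKM (1.15 ± 0.20, adjusted p = 0.000122, limma). The partner Ybx1 rose by 0.44 (SE 0.09, adjusted p = 0.00047, limma), but was at -0.04 (adjusted p = 0.668) with crystallins left out and at -0.31 (adjusted p = 0.00238, limma) with quantile normalization. The partners Dhx9, a helicase, and Hnrnpu fell by 0.89 (SE 0.10, adjusted p = 6.62e-07) and 0.66 (SE 0.10, adjusted p = 2.63e-05, limma). Igf2 and H19, named after their values were seen, were at 1265 ± 169 and 2999 ± 237 FPKM at E10.5 and at 1322 ± 122.9 and 3846 ± 424 FPKM at E16.5, and neither was called (adjusted p = 0.728 and 0.0837, limma). Quantile normalization gave 1 higher and 7 lower, with Igf2 and H19 among the lower, so their lack of a call depended on the scaling. Leaving out crystallins gave 1 and 5, and equal upper quartiles 2 and 4.

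Relatives by structure mostly went the other way from the members. Of 7 genes, which share a cold-shock domain, an AT-hook or a TRIM-NHL fold with them, 6 rose and 1 fell from E10.5 to E16.5 (median 0.62, and -0.01 for all genes). Over all genes 37.2% rose and 36.7% fell. Carhsp1, a cold-shock domain protein like LIN28A, went from 92.1 ± 6.7 FPKM (SD, n = 3) at E10.5 to 1312 ± 129 FPKM at E16.5 (3.82 ± 0.14, adjusted p = 7.45e-12, limma), with 118 ± 1 FPKM in whole body. Trim3, a TRIM-NHL protein like TRIM71, rose by 1.28 (SE 0.12, adjusted p = 1.36e-07, limma). Hmga1, the sister gene of Hmga2, fell by 1.36 (SE 0.10, adjusted p = 1.11e-08, limma). Unlike Hmga2 it lay above whole body in the lens at E10.5 (1.44 ± 0.10, adjusted p = 1.22e-08, limma) and was not called against it at E16.5 (0.08 ± 0.10, adjusted p = 0.445, limma). With crystallins left out 3 of the 7 rose and 1 fell, and with quantile normalization 4 and 2.

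Genes with the most similar pattern were found for each member by Pearson's r of log2(FPKM + 1) over the 15 libraries, which all the genes share. For Lin28a they were E2f8, Plk1, Incenp, Kif4 and Aunip (r from 0.988 to 0.991), known from cell division or, for E2f8, its transcription. Plk1, a mitotic kinase, went from a mean of 133 FPKM at E10.5 to 24.1 FPKM at E16.5, with 93.3 FPKM in whole body, a drop far smaller than that of Lin28a. For Trim71 they were Mex3a, Sall4 and Greb1 (r from 0.985 to 0.991). Sall4, a zinc-finger factor of embryonic stem cells, went from 35.1 to 1.70 FPKM, with 24.6 FPKM in whole body. For Lin28b they were Ada, Dctd and Epb4.1l5 (0.953 to 0.978), the first 2 being enzymes of nucleotide metabolism. For Hmga2 they were Ccna2, Khdrbs1 and Ddx10 (0.986 to 0.988), for Igf2bp1 Zdbf2, Hira and Gpd2 (0.992 to 0.993), for Igf2bp2 Anp32b, Parp1 and Fkbp4 (0.975 to 0.983), and for Igf2bp3 Dkc1, Mapk6 and Hcfc1 (0.975 to 0.977). Among the members themselves r over the 12 lens libraries ran from 0.792, for Lin28b with Igf2bp2, to 0.974, for Igf2bp1 with Lin28a and with Trim71. Libraries of 1 stage share that stage, so these values describe the stage means more than the libraries.

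Cell cycle genes fell over the same stages. Of 10 such genes, 0 rose and 10 fell from E10.5 to E16.5 with a median of -2.17. Over all genes 37.2% rose and 36.7% fell, with a median of -0.01. Mcm5, a subunit of the replication helicase, fell by 2.48 (SE 0.14, adjusted p = 6.52e-10, limma), and Ccnb1, a mitotic cyclin, fell by 2.41 (SE 0.14, adjusted p = 1.09e-09, limma). Summed over the list, FPKM was 2260 to 2551 at E10.5, 520.4 to 726 at E16.5 and 2347 to 2458 in whole body. Their part in the fall of the members was not tested.

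The lens libraries carried their marker genes. The summed FPKM of 12 lens markers was 1427 to 1628 at E10.5, 13843 to 24713 at E12.5, 75648 to 80532 by E14.5 and 104216 to 125353 by E16.5, against 79.3 to 82.1 in whole body. Markers of most other cell types were lower at E16.5 than at E10.5, and not every list fell at every step. Surface epithelium (8 genes) was at 349.9 to 453 FPKM at E10.5, 18.4 to 66.7 at E12.5 and 1.4 to 2.5 at E16.5, where 3 of its genes were at or near 0, with 129 to 131 in whole body. Periocular mesenchyme (9 genes in the table) was at 277 to 2719 FPKM at E10.5, 329 to 1177 at E12.5, and 13.1 to 31.7 at E14.5 and E16.5. Macrophage markers (9 genes) were at 128 to 151 FPKM at E10.5, 96.7 to 191 at E12.5 and 6.8 to 15.3 at E16.5. Endothelial markers (8 genes) were at 493 to 543 FPKM at E10.5, 240.3 to 474 at E12.5 and 70.2 to 126 at E16.5. Erythroid markers (8 genes) were at 2149 to 4903 FPKM at E10.5, 3207 to 7221 at E12.5, 137 to 330.1 at E14.5 and 68.6 to 144 at E16.5. From E10.5 to E12.5, 29.5% of all genes were called higher and 26.0% lower. In that step surface epithelium had 0 called higher and 6 lower, liver-type markers 0 and 5, neural retina 1 and 4, and endothelium 1 and 4. Periocular mesenchyme had 1 higher and 3 lower, macrophage markers 1 and 0, erythroid markers 2 and 1, and pigment cell markers 0 and 0. Neuron markers had 1 higher and 1 lower, and muscle markers 1 and 3. Neural retina (7 genes in the table) was at 198 to 294 FPKM at E10.5, 58.1 to 148 at E12.5, 17.9 to 19.3 at E14.5 and 27.2 to 44.0 at E16.5. Pigment cell markers (4 genes in the table) were at 25.3 to 80.7 FPKM at E10.5 and 31.1 to 44.4 at E16.5. Between these 2 stages 1 was called higher and 2 lower, beside 37.2% and 36.7% of all genes. The part of these cells in the fall of the members was not tested.

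Among the E12.5 libraries, replicate 1 had the highest mean log2(FPKM + 1) of mesenchyme (6.26), macrophage (4.17), endothelial (5.66), erythroid (6.93), pigment cell (4.13), neural retina (3.89) and cell cycle (6.95) genes, and the lowest of lens markers (8.95). Lin28a, Trim71 and, by under 1 FPKM, Igf2bp2 were highest in that library, Hmga2 in replicate 2, and Lin28b, Igf2bp1 and Igf2bp3 in replicate 3. At E10.5, liver-type markers (7 genes) were at a mean log2(FPKM + 1) of 5.01 and 5.77 in replicates 1 and 3 and 1.63 in replicate 2. Replicate 3 of E10.5 also had the highest mean of mesenchyme (6.383, beside 4.815 and 4.745), surface epithelium (4.42), macrophage (3.83) and neural retina (4.25) genes. Its erythroid (5.59) and endothelial (5.69) means were the lowest. Lin28a, Trim71, Igf2bp1 and Igf2bp3 were highest in replicate 3, Lin28b in replicate 1, and Hmga2 and Igf2bp2 in replicate 2. Any link was not tested. With E10.5 represented by replicate 2 alone, which is assumed to vary like the other groups, the call of Hmga2 against whole body (-0.15, adjusted p = 0.347, limma) and that of Lin28b from E10.5 to E12.5 (-0.23, adjusted p = 0.179, limma) were lost. Lin28a in that library, 129.9 FPKM, lay between the other E10.5 libraries. Neuron (7 genes in the table) and muscle (7 genes in the table) markers summed to 12.9 to 31.9 and 4.6 to 24.2 FPKM in lens libraries, against 705 to 765 and 454 to 477 FPKM in whole body.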

How the data were processed

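The authors deposited FPKM per assembled transcript, with Cufflinks, Cuffnorm, TopHat2 2.0.9 and Trimmomatic and the build mm10 named in the submitters' processing notes. Read depth is not given in the sources used here, so no counting interval can be given. FPKM sums per library ran from 707562 to 1629915. Pearson's r of log2(FPKM + 1) was 0.980 to 0.994 within groups and 0.694 to 0.987 between them.

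FPKM of the 48306 transcripts was summed per symbol, without 172 transcripts of class x (exonic overlap on the other strand), giving 14615 symbols. A filter of at least 1 FPKM in at least 3 of 15 libraries removed 80. A further 3 (Cryaa, Cryba1, Nufip2), at 0 beside a replicate of at least 50 FPKM, were left out. The other 14532 were tested with limma 3.58.1 (R 4.3.3) on log2(FPKM + 1), a pseudocount of 1, 1 mean per group over all 15 libraries, moderated variances with a trend and Benjamini-Hochberg adjustment, called under 0.05. The script was tested on simulated data. Fold changes on this scale understate changes of low genes. Replicates are separate pools of lenses, or embryos. The p-values weigh a difference of group means against the spread between replicates, pooled over all 5 groups and moderated.

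The members and the gene lists were chosen with earlier results of these data known. Named besides the members are the genes of highest r with each (5 for Lin28a, 3 for the others, among genes that average 5 FPKM or more in 1 group) and, per list, up to 2 called genes at each end from E10.5 to E16.5. Of the genes this rule names, 1 is not reported here. UTRs are from GENCODE vM21 and microRNAs from RefSeq. Alternatives were 3 other scalings, a pseudocount of 0.1, no filter, reference transcripts alone, class x included, no trend, compared groups alone, a replicate block and each library left out.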

Additional observations from a re-analysis of the deposited data

Results flagged for a closer look

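Tests of the difference between the lens effects of E16.5 and E10.5 against whole body, which are the same as the E16.5 to E10.5 contrast since both share the whole body libraries, passed for each of the 6 genes tested. The difference was -1.65 on the log2(FPKM + 1) scale for Lin28b, -5.35 for Trim71 and -1.03 for Hmga2. It was -1.38 for Igf2bp1, -0.52 for Igf2bp2 and -0.84 for Igf2bp3 (adjusted p from 3.46e-12 to 2.49e-06, limma). Of all genes, 36.7% were lower and 37.2% were higher in that contrast.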

How the results depend on the processing

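Of 1248 alternative values for single genes, 1177 kept their direction and side of the threshold, 37 lost the call, 32 gained it and 2 changed sign, both with reference transcripts alone: Trim71 at E10.5 (-0.63) and Lin28b at E12.5 (-0.0018) against whole body. Many of these values could not change direction. The replicate block, no trend, the compared groups alone and leaving out a library of another group alter only the p-value. The total also holds the values with E10.5 represented by replicate 2, which were not planned. Against whole body at E10.5, 3 of 6 were called, 5 with crystallins left out, 6 with quantile normalization and 2 to 5 without 1 library. From E10.5 to E12.5, 6 were called, and 4 to 6 without 1 library. In that step Lin28b was not called without trend (adjusted p = 0.0535, limma). Igf2bp3 was not called there in the fit of the groups compared alone (adjusted p = 0.0923, limma). From E12.5 to E14.5, 3 were called, 6 with crystallins left out, quantile normalization or equal upper quartiles, 5 with reference transcripts alone and 3 to 6 without 1 library. From E14.5 to E16.5, 5 were called, 3 in the fit of the groups compared alone and 3 to 5 without 1 library. The count of all genes called there was 1454, 825 with reference transcripts alone, 521 with the groups alone and 811 to 1728 without 1 library. The last 2 settings use fewer libraries. The causes of these changes were not tested. Labels do not say that replicate numbers pair the samples, the correlation of same-numbered deviations from the group means was -0.0946 to 0.2373, and a library correlated best with its own number in 25 of 60 checks. A replicate block called 4 of 6 at E10.5 against whole body and 4 of 6 from E14.5 to E16.5, with the other counts as before. Depth is unknown, so how far it limits Lin28a and Trim71 at E16.5 cannot be given.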
